A study of Mus musculus with 3 samples.

Results

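Mir322, Mir503, Mir351, Mir542, Mir450a-2, Mir450a-1 and Mir450b are 7 microRNA hairpins that lie together on the minus strand of the mouse X chromosome (chrX:53047997-53054349, GRCm38). They were taken by symbol from the 2202 microRNA hairpins of the GENCODE M21 annotation, of which 965 had at least 1 read in these data. The set was chosen on measured values: in earlier results of the same libraries Mir322 had the most reads of all hairpins, and Mir503 and Mir351 stood out beside it. Levels are therefore given as a description and nothing is tested on them. The annotation names Mir450a-1 and Mir450a-2 as Mir450-1 and Mir450-2. The RNA came from fully grown mouse oocytes, the large oocytes of late follicles. The mice had received PMSG, a hormone preparation that stimulates ovarian follicles, at 5 IU and 48 hours before collection. Strain, age and the number of animals or oocytes are not given in the sources used here. Trizol-extracted total RNA was cut from gels in 3 windows, 19-24 nt, 24-30 nt and 19-30 nt, and each window gave 1 library, called here the short-window (19-24 nt), long-window (24-30 nt) and full-window (19-30 nt) library. With 1 library per window there are no replicates to test a difference against. The 95% intervals below cover counting error alone, and reads amplified by PCR are not independent molecules.

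MicroRNAs guide Argonaute proteins to messenger RNAs, mainly through pairing of the seed, bases 2 to 8 from the 5′ end. A hairpin precursor can give a product from its 5′ arm (5p) and another from its 3′ arm (3p), and because the seed is counted from the first base, a product that starts at another base carries another seed. The cluster is known to be transcribed as a common precursor. miR-322 and miR-503 belong to the wider miR-15/16 family, known for targets among cell cycle genes such as cyclins, while miR-351 carries the seed of miR-125. In mouse oocytes microRNAs are known to have little repressive activity, and endogenous small interfering RNAs do much of the work. The 3′ ends of microRNAs can also carry bases that their gene does not encode, added by terminal nucleotidyl transferases.

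The mature sequences of the arms that gave most reads are shown first, since the results turn on their seeds and ends. They come from RefSeq (GRCm38.p6), run 5′ to 3′, all lie on the minus strand of the X chromosome, and have the seed in capitals. miR-322-5p lies at chrX:53054306-53054327, miR-322-3p at chrX:53054269-53054289, miR-503-5p at chrX:53054027-53054049 and miR-351-5p at chrX:53053315-53053338.
miR-322-5p: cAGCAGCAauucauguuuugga
miR-322-3p: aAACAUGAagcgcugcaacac
miR-503-5p: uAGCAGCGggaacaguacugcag
miR-351-5p: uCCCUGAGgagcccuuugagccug
miR-542-5p: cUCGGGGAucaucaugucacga
miR-542-3p: uGUGACAGauugauaacugaaa
miR-450a-5p: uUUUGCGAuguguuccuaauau
miR-450a-1-3p: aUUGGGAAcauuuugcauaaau
miR-450b-3p: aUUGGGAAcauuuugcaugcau
Mir450a-1 and Mir450a-2 have the same 5p product. The 3p products of Mir450a-1 and Mir450b have the same seed and the same first 18 bases. miR-322-5p and miR-503-5p have the same base at 11 of the 22 positions that can be compared from the 5′ end. For comparison, the miR-15/16 and miR-125 products with the seed of miR-322-5p or miR-351-5p, from chromosomes 14, 3, 11, 17 and 9, read as follows.
miR-15a-5p: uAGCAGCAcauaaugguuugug
miR-15b-5p: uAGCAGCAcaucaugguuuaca
miR-16-5p: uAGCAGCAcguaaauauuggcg
miR-195a-5p: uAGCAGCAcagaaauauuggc
miR-497a-5p: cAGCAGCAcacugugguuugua
miR-125a-5p: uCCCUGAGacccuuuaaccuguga
miR-125b-5p: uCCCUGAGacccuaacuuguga

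Each hairpin is annotated as a gene of its own and none overlaps an exon or intron of another annotated gene. From the first base of the Mir322 hairpin (chrX:53054255-53054349), Mir503 (chrX:53053984-53054054) starts 295 nt downstream and Mir351 (chrX:53053255-53053353) 996 nt. The lincRNA Gm28730 (chrX:53051194-53053159) lies between Mir351 and Mir542 (chrX:53049403-53049487), which starts 4862 nt downstream. Mir450a-2 (chrX:53048299-53048367) starts at 5982 nt, Mir450a-1 (chrX:53048154-53048244) at 6105 nt and Mir450b (chrX:53047997-53048078) at 6271 nt. The non-coding gene C430049B03Rik (chrX:53055046-53057190) is the nearest gene upstream of Mir322, on the same strand.

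The libraries held 764539, 1484509 and 943811 reads in the order short-, long- and full-window, and 247015, 23614 and 25278 reads were assigned to microRNA hairpins. A level below is a share of these microRNA reads, and a count of 0 allows up to 0.00121%, 0.0127% and 0.0119%. Reads of the short- and long-window libraries were 26 nt long and those of the full-window library 36 nt, so that between these the window and the sequencing run cannot be told apart. Marker hairpins of other ovarian cells were read in all of the libraries. A list of 10 granulosa and stroma hairpins summed to 6.46%, 0.872% and 3.33%, with Mir21a (2.18%, 0.288% and 2.58%) and Mir143 (2.09%, 0.254% and 0.502%) the most read. It was higher in the short-window than in the full-window library for 8 of 10 members, and Mir212 was at 0 in the latter. The ratio of its summed shares was 1.94, against a median of 1.64 over the 185 hairpins with at least 100 reads over the libraries. Most of these 185 thus also had the higher share in the short-window library. A list of 6 vascular and blood hairpins summed to 2.18%, 0.656% and 0.289%, higher in the short-window than in the full-window library for 6 of 6, with Mir451a (1.26%, 0.538% and 0.0356%) and Mir126a (0.788%, 0.0974% and 0.225%) the most read. Mir142 was at 0 in the long- and full-window libraries and Mir144 in the long-window library. The 14 germline X-linked hairpins went the other way, at 0.140%, 0.0296% and 2.97%, lower in the short-window than in the full-window library for 14 of 14, with Mir741 (0.0360%, 0.00847% and 0.767%) and Mir871 (0.0296%, 0.00423% and 0.336%) the most read and 9 at 0 in the long-window library. The 6 early embryo hairpins did the same, at 0.237%, 0.0593% and 4.87%, with Mir294 (0.115%, 0.0127% and 2.76%) and Mir292 (0.0627%, 0.0381% and 1.15%) leading. The part of other cells in the levels of the cluster was not tested.

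As a whole the cluster gave about 1 in 6 microRNA reads of the short-window and the long-window library, but from different hairpins, and far fewer of the full-window library. It had 40691 reads (16.5% of microRNA reads, Wilson interval 16.3 to 16.6) in the short-window library, 4242 (17.96%, 17.5 to 18.5) in the long-window library and 395 (1.56%, 1.42 to 1.72) in the full-window library. The level in the short-window library was thus 10.5 times that in the full-window library (conditional binomial interval 9.55 to 11.7), but 0.917 times that in the long-window library (0.888 to 0.947). Mir322 made up 70.1% of the cluster's reads in the short-window and 74.4% in the full-window library, whereas Mir351 made up 88.8% in the long-window library. Without Mir351 the cluster fell from 17.96% to 2.0% of microRNA reads in the long-window library, and its ratio of the short-window over the long-window library turned from 0.917 to 7.45. Without Mir322 it held 4.93%, 16.9% and 0.40% in the short-, long- and full-window libraries. The ratio over the long-window library also lay above 1 with 1 mismatch allowed (1.07), with reads of several places counted in full at each (1.86) and over all usable inserts (20.1), whereas a match over the whole insert gave 0.346. That over the full-window library was 27.4 in full and 66.5 over usable inserts. No read of any library matched one of the hairpins in antisense.

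**Figure D1:**
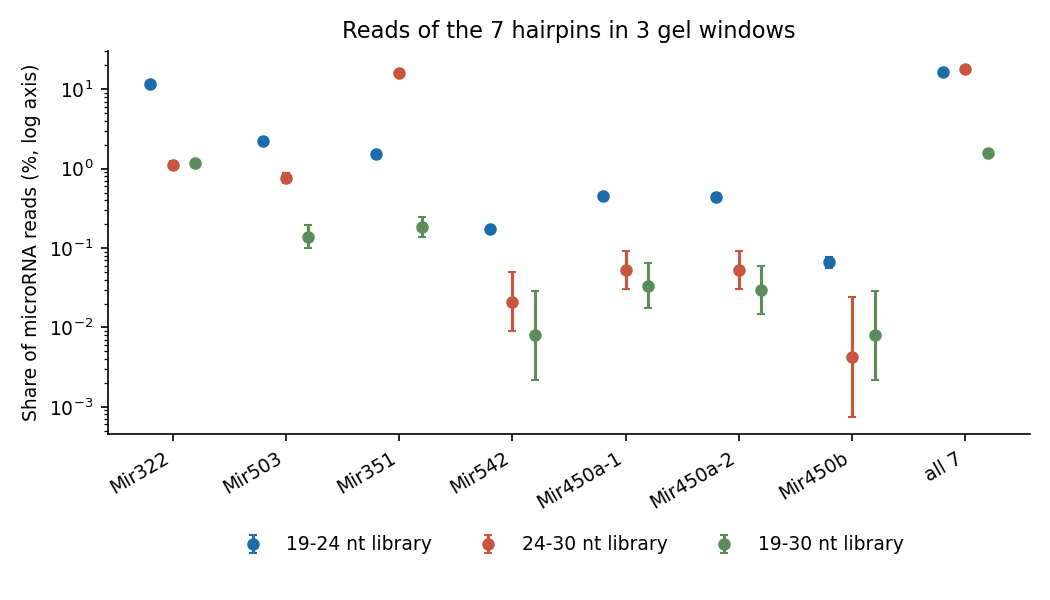
Share of microRNA reads (%, log axis) of each of the 7 hairpins and of all 7 together in the 19-24, 24-30 and 19-30 nt libraries; points are 1 library each and bars are 95% Wilson intervals of the counting error. Mir351 is the only hairpin of the 7 whose highest point is that of the 24-30 nt library, at 15.96%.

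Mir322, the first hairpin of the cluster, had 28524 reads (11.5%, 11.4 to 11.7) in the short-window library, 263 (1.11%, 0.988 to 1.26) in the long-window library and 294 (1.16%, 1.04 to 1.30) in the full-window library. It ranked 1, 24 and 20 among the 965 hairpins with a read. Its share in the short-window library was 10.4 times that in the long-window library (9.18 to 11.8) and 9.93 times that in the full-window library (8.85 to 11.2), while the latter libraries differed by less than the counting error (ratio of the full-window over the long-window library 1.04, 0.881 to 1.24). Mir503, whose 5p product belongs to the same wider family, had 5540 reads (2.24%, 2.19 to 2.30), 179 (0.758%, 0.655 to 0.877) and 35 (0.138%, 0.0996 to 0.192), and ranked 4, 26 and 86. The ratio of the short-window over the long-window library was 2.96 (2.55 to 3.45) and that over the full-window library 16.2 (11.6 to 23.3). Beside Mir322, Mir503 thus had a smaller ratio over the long-window library and a larger one over the full-window library, and neither pair of intervals overlaps. The second difference depends on the match. Over the full-window library, a match of the whole insert gave 4.53 for Mir503, below 8.69 for Mir322, and over the long-window library it gave 4.65 and 27.5. Places counted in full raised the ratios over the long-window library to 5.72 for Mir503 and 20.1 for Mir322, and those over the full-window library to 41.4 and 25.4.

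Mir351 had nearly equal counts in the short and the long window, against a total of microRNA reads that was far smaller in the latter. It had 3816 reads (1.54%, 1.50 to 1.59) in the short-window library, 3769 (15.96%, 15.5 to 16.4) in the long-window library and 46 (0.182%, 0.136 to 0.243) in the full-window library, at ranks 20, 2 and 79. The share in the short-window library was 0.0968 times that in the long-window library (0.0925 to 0.101) and 8.49 times that in the full-window library (6.35 to 11.6). Over all usable inserts of at least 18 nt in place of microRNA reads, the ratio of the short-window over the long-window library was 2.12, so that the direction for Mir351 depends on the denominator. A match of the whole insert gave 0.0591 over the long-window and 29.1 over the full-window library, and places counted in full gave 0.187 and 21.7.

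The downstream hairpins were read less. Mir542 had 428 reads (0.173%, 0.158 to 0.190), 5 (0.0212%) and 2 (0.00791%) in the short-, long- and full-window libraries. Reads of the shared 5p product were divided equally between Mir450a-1 and Mir450a-2, which cannot be told apart by it. Mir450a-1 then had 1119 reads (0.453%, 0.427 to 0.480), 12.5 (0.0529%) and 8.5 (0.0336%), and Mir450a-2 had 1101.5 (0.446%, 0.420 to 0.473), 12.5 (0.0529%) and 7.5 (0.0297%). Mir450b had 162.5 reads (0.0658%, 0.0564 to 0.0767), 1 and 2. The ratios of the short-window over the long-window library were 8.18 (3.48 to 25.3) for Mir542, 8.56 (4.93 to 16.4) for Mir450a-1 and 8.42 (4.86 to 16.1) for Mir450a-2. That of Mir450b, against 1 read, was 15.5 (2.75 to 617). Over the full-window library the ratios were 21.9 (6.03 to 181) for Mir542, 13.5 (6.95 to 30.4) for Mir450a-1, 15.0 (7.44 to 36.1) for Mir450a-2 and 8.31 (2.27 to 69.2) for Mir450b. Places counted in full gave 15.8 to 30.5 over the long-window and 21.6 to 56 over the full-window library for these hairpins, and reads of a single place gave 2.94 for Mir450a-1 over the latter. Within the short-window library the order of levels was Mir322, Mir503, Mir351, the Mir450a hairpins, Mir542 and Mir450b, and only the intervals of Mir450a-1 and Mir450a-2 overlapped.

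All 7 members were among the 185 hairpins with at least 100 reads over the libraries. Against the long-window library, 6 of the 7 had a share at least 2-fold higher in the short-window library, as did 57.8% of the 185, and 1, Mir351, was at least 2-fold lower, as were 17.8%. Against the full-window library, 7 of the 7 were at least 2-fold higher in the short-window library, as were 45.4% of the 185, and 0 were at least 2-fold lower, against 20.5%. The median ratio over the 185 was 2.91 against the long-window and 1.64 against the full-window library. Because the members were chosen on these levels, nothing is read from the counts. In the plane of the log2 ratios, the hairpins outside the cluster nearest to Mir322 were Mir145a (11.7 and 12.6, as ratios over the long- and the full-window library), Mir99b (7.51 and 9.46) and Mir125a (7.62 and 8.44). Mir145a had 5 reads in each of those libraries. Those nearest to Mir503 were Mir34a (2.99 and 13.1), Mir376c (3.6 and 11.6) and Mir370 (1.80 and 19.2), of which Mir376c and Mir370 rest on 1 read in the full-window library. Nearest to Mir351 was Mir181d (0.0703 and 9.11), at a distance of 0.472 log2 units, with 267, 363 and 3 reads. Mir134 (0.203 and 18.5) and Mir181b-2 (0.0533 and 3.12) followed at 1.55 and 1.68 log2 units, on 2 and 5 reads in the full-window library.

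**Figure D2:**
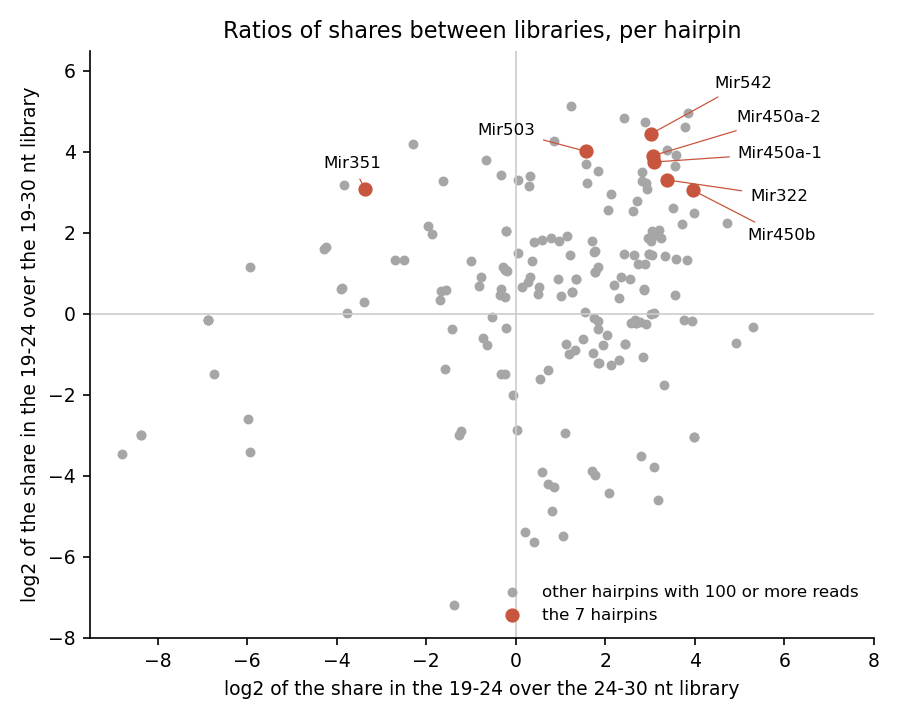
Each point is 1 of the 185 hairpins with at least 100 reads, placed by the log2 ratio of its share in the 19-24 over the 24-30 nt library (horizontal) and over the 19-30 nt library (vertical), with the 7 members in red. All 7 lie above 0 on the vertical axis, and Mir351 is the member left of 0 on the horizontal axis.

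Hairpins elsewhere in the genome that give the same seed were set beside the members. The seed AGCAGCA of miR-322-5p is shared by 11 annotated arms, which had 39267, 544 and 2667 reads in the short-, long- and full-window libraries. miR-322-5p supplied 67.9% of these in the short-window library (67.5 to 68.4), 45.6% in the long-window library (41.4 to 49.8) and 8.62% in the full-window library (7.62 to 9.75), where most came from miR-16. The 6 hairpins Mir15a, Mir15b, Mir16-1, Mir16-2, Mir195a and Mir497 together had a lower share in the short-window than in the full-window library, 5.12% against 9.64% (ratio 0.531, 0.508 to 0.554). Mir16-1 and Mir16-2, which share a product, had ratios of 0.430 (0.402 to 0.460) and 0.428 (0.401 to 0.458). Mir15a (0.930, 0.734 to 1.19) and Mir15b (1.02, 0.875 to 1.19) differed by less than the counting error. Mir195a and Mir497, a pair of neighbours on chromosome 11, were higher in the short-window library, at 5.94 (2.70 to 16.3) and 9.74 (4.70 to 24.3), though on 6 and 7 reads in the other. The annotation has 1 hairpin for Mir497 and Mir497a. No other annotated arm carries the seed AGCAGCG of miR-503-5p.

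The seed CCCUGAG of miR-351-5p occurs in 6 annotated arms, with 7375.5, 3803 and 110 reads in the short-, long- and full-window libraries. miR-351-5p gave 50.8% of them in the short-window library (49.7 to 52.0), 99.001% in the long-window library (98.6 to 99.3) and 40.9% in the full-window library (32.2 to 50.3). The rest came from miR-125a and miR-125b. Mir125a had ratios of 7.62 over the long-window and 8.44 (5.86 to 12.6) over the full-window library, and for Mir125b-1 and Mir125b-2 the latter were 3.68 (2.31 to 6.25) and 3.77 (2.36 to 6.39). Together the Mir125 hairpins had 8.04 times the share in the short-window library that they had in the long-window library (5.98 to 11.1), the opposite side of 1 from Mir351.

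Reads came mostly from the 5p arm of Mir322, Mir503, Mir351 and the Mir450a hairpins, from both arms of Mir542 and from the 3p arm of Mir450b. The 5p arm of Mir322 gave 26671 of 28522 arm reads in the short-window library (93.5%, 93.2 to 93.8) and 248 of 263 in the long-window library (94.3%, 90.8 to 96.5), but 230 of 294 in the full-window library (78.2%, 73.2 to 82.6). The 3p share of Mir322 was thus 6.49% (6.21 to 6.78) in the short-window and 21.8% (17.4 to 26.8) in the full-window library, intervals that do not overlap. The gap was smaller with a quality of at least 10 in each of the first 20 bases. The 5p share was then 94.6% in the short-window and 85.2% in the full-window library. With a match of the whole insert the 5p share of Mir322 was 82.6% in the short-window, 47.4% in the long-window and 76.1% in the full-window library, so that the order of the long- and full-window libraries turned. Base 21 of miR-322-5p, which the whole-insert match needs, differed from the hairpin in 65.2% of reads in the short-window, 94.5% in the long-window and 9.29% in the full-window library. For Mir503 the 5p arm held 99.9%, 97.8% and 100% of the arm reads, and for Mir351 98.3%, 100% and 97.8%. Of Mir351, 66 reads of the 3p arm were found in the short-window library, 0 in the long-window library and 1 in the full-window library. Mir542 divided its reads into 227 of 5p and 201 of 3p (53.0% 5p, 48.3 to 57.7) in the short-window library. The 5p arm made up 96.9% (95.7 to 97.8) of Mir450a-1 and 98.5% (97.5 to 99.03) of Mir450a-2 there, whereas Mir450b had 18 reads of 5p and 144.5 of 3p (88.9% 3p, 83.2 to 92.9). Outside the arms lay 2 reads of Mir322 and 1 of Mir503 in the short-window library, and 1 of Mir503 and 4 of Mir351 in the long-window library.

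Products of the 5p arms began almost always at the annotated base, and the 3p arms of Mir322, Mir450b and Mir450a-1 did not. In the short-window library 98.8% of the 26671 reads of miR-322-5p (98.7 to 98.95), 99.3% of the 5533 of miR-503-5p (99.04 to 99.5) and 99.5% of the 3750 of miR-351-5p (99.3 to 99.7) began there. The same held for 1082 of 1084.5 reads of miR-450a-5p at each hairpin (99.8%), for 227 of 227 of miR-542-5p and for 193 of 201 of miR-542-3p (96.0%, 92.3 to 98.0). The median over the 147 arms with at least 100 reads in that library, each at its most frequent start, was 99.2%. Mir322-3p stood 17th and Mir450b-3p 3rd from the lowest of these arms.

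Of the 1851 reads of miR-322-3p in the short-window library, 1504 (81.3%, 79.4 to 83.0) began at the annotated base, 261 (14.1%, 12.6 to 15.8) 2 bases upstream and 83 (4.48%, 3.63 to 5.52) 1 base upstream. The 64 reads of the full-window library gave 44 (68.8%, 56.6 to 78.8), 10 (15.6%, 8.71 to 26.4) and 9 (14.1%, 7.58 to 24.6). The 15 of the long-window library gave 8, 3 and 4. With a base quality of at least 10, the most frequent start held 80.9% in the short-window and 50% in the full-window library. All of the libraries thus held the upstream starts, which move the seed. Read from the hairpin, these forms begin as follows, with their own seed in capitals.
Mir322-3p, 2 bases upstream (chrX:53054270-53054291): cAAAACAUgaagcgcugcaaca
Mir322-3p, 1 base upstream (chrX:53054270-53054290): aAAACAUGaagcgcugcaaca
For Mir450b-3p, 87 of 144.5 reads of the short-window library (60.2%, 52.1 to 67.8) began at the annotated base, 25.5 (17.6%, 12.3 to 24.7) 1 base upstream and 32 (22.1%, 16.1 to 29.6) 1 base downstream. The 34.5 reads of Mir450a-1-3p there gave 22 (63.8%, 47.1 to 77.7), 6.5 (18.8%, 9.20 to 34.7) and 6 (17.4%, 8.22 to 33.1). Reads of Mir450b-3p that lack the bases after the shared 18 could not be divided from those of Mir450a-1 and were split between them. The shifted forms of Mir450b-3p are these.
Mir450b-3p, 1 base upstream (chrX:53048009-53048030): uAUUGGGAacauuuugcaugca
Mir450b-3p, 1 base downstream (chrX:53048008-53048028): uUGGGAACauuuugcaugcau

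**Figure D3:**
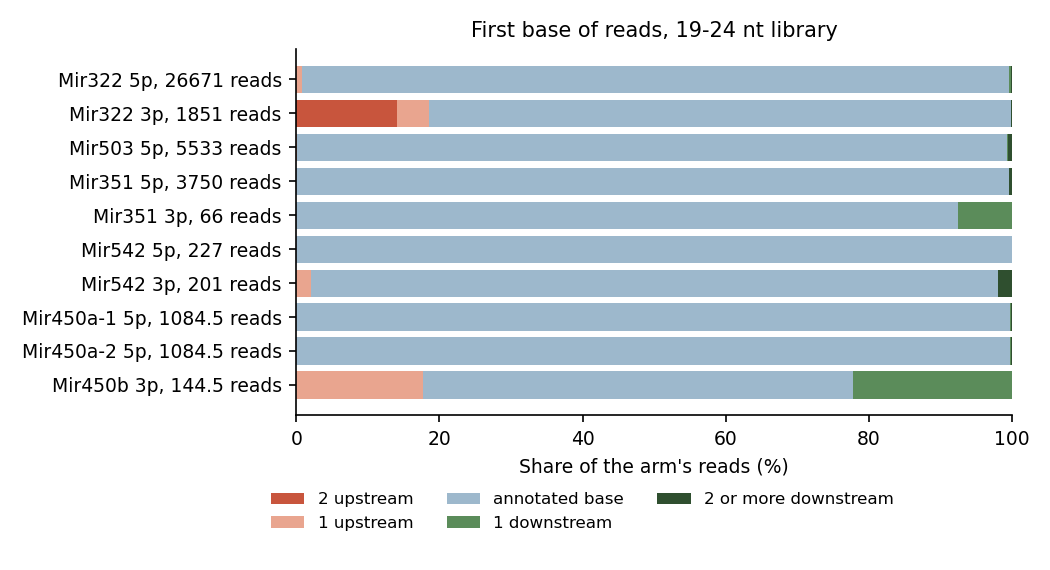
Share of each arm's reads (%) by the position of their first base against the annotated mature start, in the 19-24 nt library; the number of reads of each arm stands beside its name. Mir322-3p has 14.1% of its reads 2 bases upstream, and Mir450b-3p has 17.6% 1 base upstream and 22.1% 1 base downstream.

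Lengths were taken from the full-window library, whose reads size an insert of as many as 30 nt. Of the 230 reads of miR-322-5p, 194 (84.3%, 79.1 to 88.5) were of 22 nt, the annotated length, 25 of 23 nt and 9 of 21 nt, with a mean of 22.1 nt (SD 0.482). The 64 reads of miR-322-3p were shorter and more spread, 23 of 20 nt, 22 of 21 nt and 17 of 22 nt, with a mean of 20.8 nt. miR-503-5p had 17 of its 35 reads at its annotated 23 nt and 8 at 22 nt. The most frequent length of all microRNA reads in this library was 22 nt (41.5%). Of the hairpins further down, Mir450a-1 and Mir450a-2 each had 6.5 of 7.5 reads of the 5p arm at 22 nt.

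Many reads of miR-351-5p were longer than its annotated 24 nt. Of its 45 reads in the full-window library 18 were of 25 nt (40%, 27.02 to 54.5), 7 of 24 nt, 7 of 26 nt and 6 of 23 nt, and the mean was 24.2 nt (SD 1.68). Reads of 24 nt or longer made up 73.3% (59.0 to 84.0), against 10.2% of all microRNA reads in that library, 0.435% of those of miR-322-5p and 14.3% of those of miR-503-5p. Among the 86 arms with at least 30 reads it had the third highest mean length, after Mir541 (24.7 nt) and Mir290a (24.6 nt), and it was 1 of 5 with at least 50% of reads at 24 nt or longer. Some 36 nt reads that began as a member gave no linker and are not in these lengths. The library held 51 reads that began as miR-351-5p, of which 45 were counted, 269 and 225 for miR-322-5p, and 49 and 35 for miR-503-5p.

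**Figure D4:**
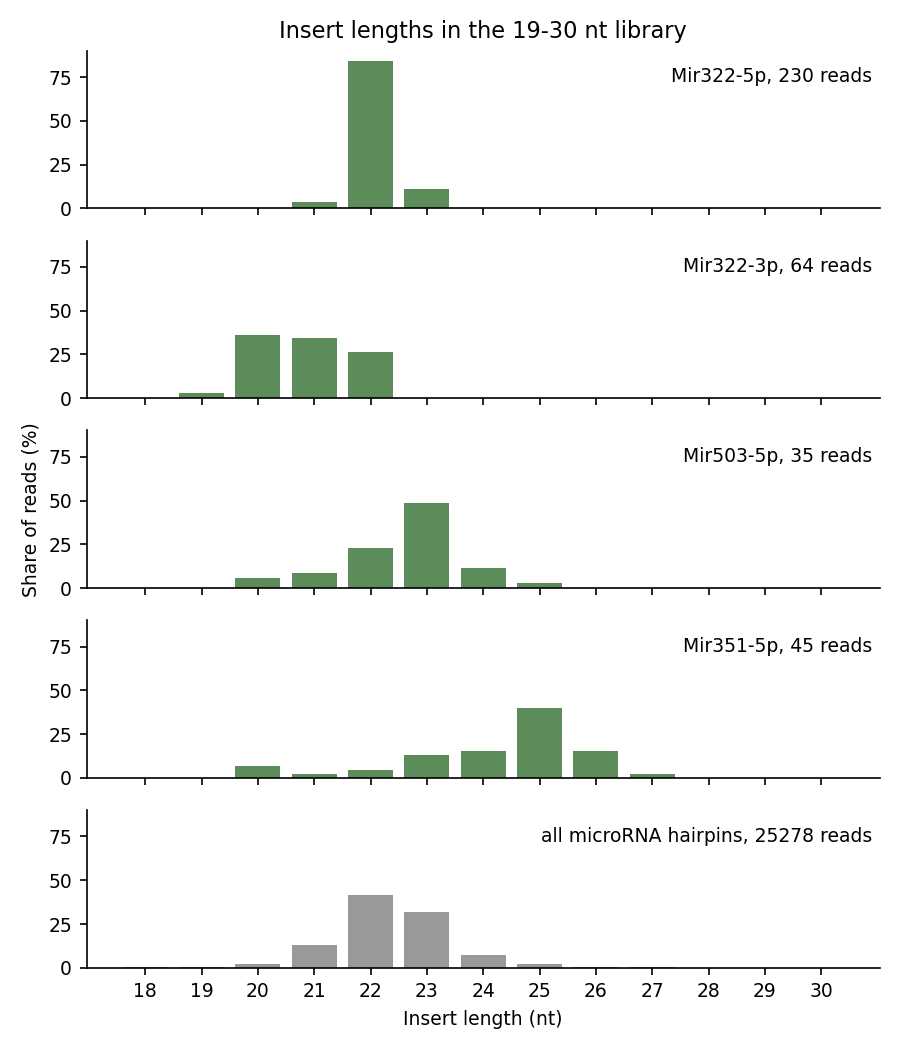
Insert lengths (nt) in the 19-30 nt library as the share of reads (%) of Mir322-5p, Mir322-3p, Mir503-5p, Mir351-5p and all microRNA hairpins, with the number of reads in each panel. Mir322-5p peaks at 22 nt (84.3%), Mir351-5p at 25 nt (40%).

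The bases read after the annotated 3′ end of miR-351-5p did not come from the hairpin. In the Mir351 hairpin, shown with both arms in capitals (chrX:53053255-53053353, minus strand), the 5p product ends at its last capital before the loop.
Mir351 hairpin: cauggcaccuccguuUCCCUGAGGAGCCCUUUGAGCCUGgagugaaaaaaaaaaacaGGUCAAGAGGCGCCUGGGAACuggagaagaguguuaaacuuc
The most frequent insert of the full-window library that began at the annotated base, with 16 of 45 reads, had 25 nt and a final uracil unlike the hairpin, in capitals below. Next came the 23 nt form with 6 reads and the annotated 24 nt form with 4.
Mir351-5p, 25 nt as read: ucccugaggagcccuuugagccugU
Mir351-5p, 23 nt as read: ucccugaggagcccuuugagccu
Mir351-5p, 24 nt as read: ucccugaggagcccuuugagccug
Of the 28 sized inserts whose bases from 22 on reached the annotated end, 4 ended there, 0 went on as the hairpin does and 24 (85.7%, 68.5 to 94.3) had other bases after it. Of these, 16 had a single U and 4 had UU. Over the 77 arms with at least 20 such inserts the median share with other bases was 13.97%. Mir351-5p was the second highest of them, Mir322-3p the 11th (45.0%, 25.8 to 65.8) and Mir322-5p the 53rd (10.2%, 6.53 to 15.5).

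The windows held different ends of miR-351-5p, and the gel cuts themselves select by length. Inserts of 26 nt lie inside the 24-30 nt window and above the 19-24 nt window. In the 26 nt reads bases 25 and 26 could be read after the annotated end. The short-window library had 2187 reads of miR-351-5p that matched the hairpin from base 22 to 24. Of these, 452 (20.7%, 19.0 to 22.4) went on with the linker, 1419 (64.9%, 62.9 to 66.9) with 1 base and then the linker, which was U in 1342, and 294 (13.4%, 12.1 to 14.9) with A or U at both positions. The 3239 such reads of the long-window library gave 38 (1.17%, 0.856 to 1.61), 87 (2.69%, 2.18 to 3.30) and 3021 (93.3%, 92.4 to 94.1). The form with 1 base before the linker, of 25 nt, lies above the 19-24 nt and inside the 24-30 nt window. Its share was nevertheless larger in the short-window library, and the part of the gel cuts in these ends was not tested. Among the 3021 reads with A or U at both positions, UU was read 1731 times, UA 1095, AA 121 and AU 74 times. The 32 such reads of the full-window library lay nearer to the short-window library, with 6, 17 and 8. The 3 annotated bases before the end happen to be those with which the linker begins, so that UA after them can also be read as a 21 nt product followed by linker. The alternatives cannot be told apart in 26 nt reads, and UU alone made up 53.4% (51.7 to 55.2) of the 3239 reads of miR-351-5p in the long-window library. Base 21 differed from the hairpin in 31.1% of reads that began as miR-351-5p in the long-window library and was not used. In the same reads, bases 22, 23 and 24 differed in 0.567%, 2.08% and 7.88%.

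miR-503-5p showed the same contrast between windows and miR-322-5p less of it. A or U alone up to base 26 needs an insert of at least 26 nt, longer than the 19-24 nt window. Linker right after the annotated 23 nt of miR-503-5p means an insert below the 24-30 nt window. The gel cuts thus select for this contrast, and how much of it they account for was not tested. Of 3515 reads of miR-503-5p in the short-window library that reached the annotated end, 2174 (61.8%, 60.2 to 63.4) went on with the linker and 6 (0.171%, 0.0783 to 0.372) with A or U alone up to base 26. Of 123 in the long-window library, 3 (2.44%, 0.833 to 6.93) went on with the linker and 76 (61.8%, 53.0 to 69.9) with A or U alone. Among these were AAA in 19 reads, UUU in 18 and UAU in 17. Of 202 reads of miR-322-5p in the long-window library, 145 (71.8%, 65.2 to 77.5) ended at the annotated 22 nt, below the window, and 24 (11.9%, 8.12 to 17.1) had A or U alone up to base 26, UUUU in 14 of them. In the short-window library these were 16114 of 20034 (80.4%, 79.9 to 81.0) and 12 (0.0599%, 0.0343 to 0.105).

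Added A and U were also read in arms outside the cluster. Over the 61 arms of 22 to 24 nt with at least 20 reads in the long-window library, the median share of reads with A or U alone after the annotated end was 40.8%, and 25 arms had 50% or more. Mir351-5p had 93.3% with its UA reads counted, the highest. With its 1095 UA reads counted as other ends but kept among the 3239, it had 1926 such reads (59.5%, 57.8 to 61.1), the 23rd. That is below Mir186-5p (82.1%) and Mir181d-5p (79.5%), of which no read was counted so. Its share and its place are lower limits, because a shorter product followed by linker would not belong among the 3239. A share with the UA reads taken out of the total was not computed. Mir503-5p was the 20th and Mir322-5p the 45th with the UA reads of Mir351 counted. In the short-window library the median over 162 arms was 0%. There Mir351-5p had 13.4% with UA reads and 7.64% (6.60 to 8.82) with these counted as other ends, above and below Mirlet7b-5p (9.67%, 8.72 to 10.7). The full-window library gave a median of 0.816% over 76 arms. Mir351-5p stood at 25% (13.3 to 42.1), or 18.8% (8.89 to 35.3) with UA counted as other ends, beside Mir301-3p at 20% (8.07 to 41.6). With UA counted as other ends Mir351-5p was first in no library. These places are the lowest that any reading of its UA reads allows. Its place with the UA reads taken out of the total was not computed. Its share with A or U alone was higher in the long-window than in the short-window library either way, an order that the gel cuts favour. miR-322-5p had 0 such reads of 197 in the full-window library and miR-503-5p 0 of 28. Of the hairpins further down, miR-542-5p, miR-542-3p and miR-450b-3p had 0 of 139, 138 and 77 in the short-window library. This order favours arms annotated at 24 nt, for which only bases 25 and 26 have to be A or U, against 4 bases for an arm of 22 nt. The source of the added bases was not tested.

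**Figure D5:**
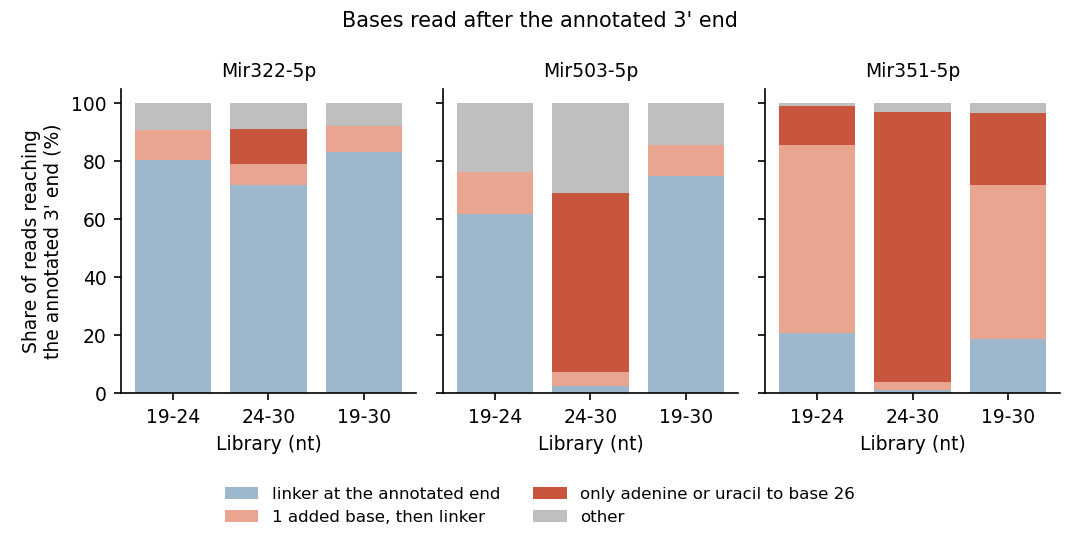
Bases read after the annotated 3′ end of Mir322-5p, Mir503-5p and Mir351-5p, as the share (%) of reads that match the hairpin from base 22 to that end, in the 19-24, 24-30 and 19-30 nt libraries. Reads with only adenine or uracil up to base 26, UA included, make up 93.3% for Mir351-5p and 61.8% for Mir503-5p in the 24-30 nt library, and 13.4% and 0.171% in the 19-24 nt library. Inserts of 26 nt lie above the 19-24 nt window. Those of Mir351-5p with 1 added base, of 25 nt, do so too but make up 64.9% in that library and 2.69% in the 24-30 nt library. Gel cuts select by length, and how much of the difference they account for was not tested.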

How the data were processed

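The values deposited by the authors are neither counts nor another gene-level unit but raw reads with base qualities, still carrying the 3′ linker. The aligner, build and filters of the authors are not given in the sources used here. Reads were trimmed with a linker overlap of at least 4 (26 nt reads) or 6 bases (36 nt reads) and up to 20% mismatches, which was tested on simulated data. Sizes of 26 nt reads were not used for the lengths given. They served to drop inserts below 18 nt and to set the insert in the match over the whole insert. Where fewer than 4 linker bases were read, the insert stayed unsized and that match took in all 26 bases, linker included. Of the 36 nt reads, 308575 without a linker were set aside. The first 20 nt had to match perfectly among 141767 GENCODE M21 transcripts, on both strands. Places outside these transcripts were not counted. Reads matching several genome places within them were divided equally among those places. Those with over 1000 places, low complexity or an uncalled base in the first 18 were left out. An arm took reads starting within 5 nt of its RefSeq start. No test was planned or made, each window having 1 library. Shares have Wilson and ratios conditional binomial intervals at the 95% level, and a count of 0 was raised to 3 in the plane of ratios.

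The members, the marker lists and the rules were chosen with earlier results of these data known. The text names all 7 members, their seed mates, the 3 nearest hairpins in the plane of ratios and the 2 most read of each marker list. Bases after annotated ends were examined after the data had been seen, and reads named there were chosen after their values were seen. Python 3.11.15, numpy 2.4.6, scipy 1.17.1 and matplotlib 3.10.9 were used.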

Additional observations from a re-analysis of the deposited data

How the results depend on the processing

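The values of the cluster in the short-, long- and full-window libraries depended on how reads were counted. With only reads of a single place they were 21.6%, 25% and 2.33%, and with every place counted in full 11.9%, 6.43% and 0.437%. A match over the whole insert gave 13.5%, 39.1% and 1.37%. There the linker search had given 3208 reads of Mir351 in the long-window library 21 nt, because the bases before its annotated end are those of the linker. Matching the first 18 nt gave 15.8% and 17.1%, and 1 allowed mismatch 15.9% and 14.8%, in the short- and long-window libraries. A quality of at least 10 gave 17.6% and 19.9%. Hairpins named Mir as the denominator gave 20.6% in the long-window library, and all usable inserts gave 5.98%, 0.298% and 0.0900%. Without Mir351 the values were 14.9%, 2.0% and 1.38%, and without Mir322 4.93%, 16.9% and 0.40%. Keeping 36 nt reads without a linker gave 1.38% in the full-window library. The last 3 changes, and counting the UA reads of Mir351-5p as other ends, were chosen after seeing the data.

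The ratio of the short-window over the long-window library, 0.917, lay on the other side of 1 with 1 mismatch (1.07), every place in full (1.86), usable inserts (20.1) and without Mir351 (7.45). It was 0.346 with whole inserts, 0.865 with single places, 0.887 with the quality minimum, 0.802 over hairpins named Mir and 0.292 without Mir322. The ratio over the full-window library, 10.5, stayed above 1 in all of these settings, at 9.30 with single places, 27.4 in full, 12.4 with the quality minimum, 66.5 over usable inserts, 11.9 with reads lacking a linker kept and 12.3 without Mir322. A longer linker overlap moved none of these beyond the counting error. For single hairpins and arms, 276 of 430 values stayed within the counting error, 153 moved, and the ratio of Mir351 over the long-window library turned to 2.12 over usable inserts. Apart from what the text gives, the cause was not tested. No paired analysis was possible because each window has 1 library. Low counts, 35 to 294 reads of Mir503, Mir351 and Mir322, limit arms and lengths in the full-window library.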
